A study of Rattus norvegicus with 14 samples.

Results

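The genes Slc5a1, Slc5a2 and Slc5a3 encode transporters that carry a sugar or myo-inositol into the cell together with sodium. They were taken from the arrays by their gene symbols in the platform annotation, and all 3 were measured, each by 1 probe, among 4156 genes. Slc5a1 is probe 4547 (Entrez gene 25552), Slc5a2 probe 3304 (64522) and Slc5a3 probe 1599 (114507). The chromosomal position and sequence of the probes are not used here.

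In the brush border of the small intestine the protein of Slc5a1, SGLT1, takes up glucose and galactose against their gradient. The force comes from the sodium gradient that the sodium pump (Na,K-ATPase) keeps up, and the sugar leaves the cell on the blood side through the facilitative carrier GLUT2. Fructose is not carried by SGLT1 and enters through GLUT5, the product of Slc2a5. SGLT2, the product of Slc5a2, is known for the recovery of glucose in the proximal tubule of the kidney. SMIT1, the product of Slc5a3, takes up myo-inositol, an osmolyte and a building block of phosphoinositides, and its gene is known to respond to hypertonic medium.

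Small intestine of rats aged 20 days, perfused with HF or HG, had been compared on arrays of 2 colours, where each value is the log ratio of the RNAs in both channels, treated here as log2. The names HF and HG are taken to stand for high fructose and high glucose from knowledge of the study, since the labels do not spell them out. At 4 h 5 pairs of HF and HG samples were used (arrays 1 to 5), and array 6 repeated pair 2. At 20 min there were 4 pairs. On 3 further arrays of 4 h RNA, called self-self, both channels held the same RNA (1HG, 3HG or 3HF), and 1 array held only the primers of the labelling kit. No array is labelled as tissue without HF and HG, so more RNA with HF and less with HG cannot be told apart. In whole tissue fewer cells of a type and less RNA per cell cannot be told apart either. Whether each pair was taken from animals of its own is not in the labels, and the spread behind each p-value is that between arrays, which may be technical and whose number limits the precision.

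The direction of the ratio is not stated. Positive values probably stand for a higher RNA level after HF, and that direction is named the HF side. This rests on the title of array 6, whose digits after HG and HF look like the names of dyes, and on Slc2a5, known to be induced by fructose. Slc2a5 had 1.53, 1.62, 1.95, 1.84 and 1.33 on arrays 1 to 5 and -1.66 on array 6. If that reading is wrong, every sign below turns round. Swapped dyes would turn the sign of a difference between samples. Over all features, however, arrays 2 and 6 correlated positively (Pearson's r 0.41, Spearman's rho 0.26), also with the self-self mean subtracted (rho 0.22). The dye orientation of array 6 was not tested. The arrays of HF and HG samples other than array 6 had an SD over all probes between 0.334 and 0.401. Array 6 (0.824) and the self-self array 1HG (1.39) scattered more, and 79 of the 452 probes numbered above 4500, a range that includes the probe of Slc5a1, lay beyond 2 on 1HG. Slc5a1 itself had -0.16 there.

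None of the 3 transporter genes passed the test in any comparison. Slc5a1 had nearly the same mean ratio at 4 h, at 20 min and on the self-self arrays. Slc5a2 scattered widely between pairs around a mean near 0. Slc5a3 had a lower ratio at 4 h than on the self-self arrays in every pair, a difference of -0.41 ± 0.15 (SE) that did not pass adjustment over all features. A feature was called where its p in limma's fit, adjusted over all 4682 features by the method of Benjamini and Hochberg, was below 0.05. The fit called 0.0641% of features at 4 h against the self-self arrays (3 features, but 0 with the RNA number as a block), 0.0427% at 20 min against the self-self arrays and 0.598% between the times, with 0 of the 3 members in each. In the block fit the difference from the self-self arrays comes from pairs 1 and 3 alone, and few degrees of freedom remain for its spread.

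**Figure D1:**
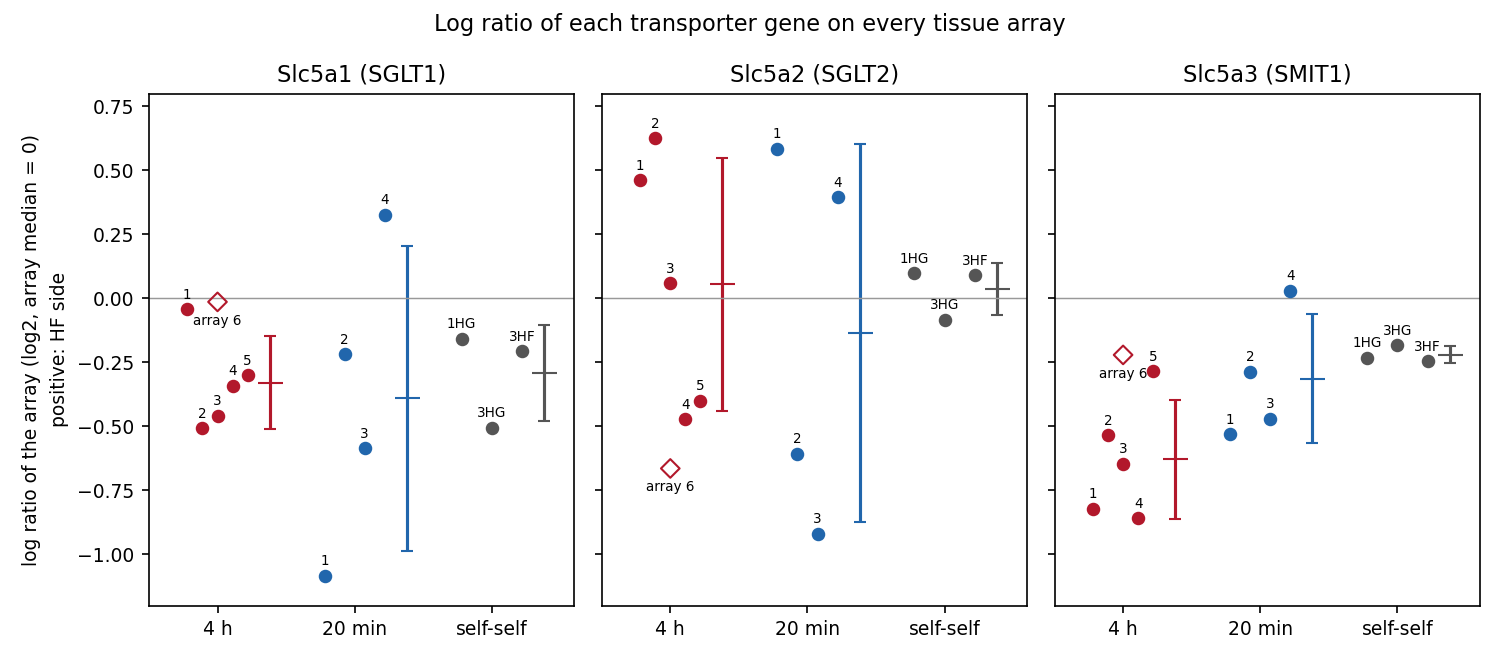
The vertical axis is the log2 ratio of an array, centred on the array's median; points are arrays, numbered by pair at 4 h and 20 min and by RNA for the self-self arrays, bars beside them are mean and SD, and the open diamond is array 6, which is in no mean. The 5 arrays at 4 h lie below the 3 self-self arrays for Slc5a3 and overlap them for Slc5a1, while for Slc5a2 the arrays of HF and HG samples spread to both sides of the self-self arrays.

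Slc5a1, the gene of the intestinal glucose carrier SGLT1, had log ratios of -0.04, -0.51, -0.46, -0.34 and -0.30 on the arrays 1 to 5 at 4 h. At 20 min its log ratios were -1.08, -0.22, -0.59 and 0.33. The self-self arrays 1HG, 3HG and 3HF gave -0.16, -0.50 and -0.21. All 5 arrays at 4 h and all 3 self-self arrays were thus below 0 and the groups overlapped, so a negative ratio of this probe was also seen where both channels held the same RNA. The 4 h mean of -0.33 ± 0.18 (SD, n = 5) differed from the self-self mean of -0.29 ± 0.19 (SD, n = 3) by -0.04 ± 0.25 (SE; limma adjusted p = 0.964). The 95% interval of that difference, from -0.58 to 0.50, still allows a fold of HF over HG between 0.668 and 1.42. Its width rests on a spread pooled over all 3 groups, including the 20 min arrays, which scattered more. With only the 2 groups compared in the fit the SE was 0.14 at 4 h (adjusted p = 0.939) and, for the 20 min difference given next, 0.31.

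At 20 min Slc5a1 averaged -0.39 ± 0.59 (SD, n = 4), and its difference from the self-self arrays was -0.10 ± 0.26 (SE; adjusted p = 0.992), with an interval from -0.67 to 0.47. Pair 1 was the lowest and pair 4 the only one above 0, and pairs 1, 3 and 4 lay outside the range of the self-self arrays. Without pair 1 the difference was 0.13. Between 4 h and 20 min the ratio differed by 0.06 ± 0.23 (SE; adjusted p = 0.958; interval from -0.44 to 0.56). The spread itself was unlike at both times: the SD of Slc5a1 at 4 h was higher than that of 39.4% of features, and at 20 min higher than that of 98.5%, with 62.6% on the self-self arrays. No test of this spread was run.

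Slc5a2, the gene of the renal glucose carrier SGLT2, had log ratios of 0.46, 0.63, 0.06, -0.47 and -0.40 at 4 h. At 20 min they were 0.58, -0.61, -0.92 and 0.39, against 0.10, -0.08 and 0.09 on the self-self arrays 1HG, 3HG and 3HF. Pairs with more signal on the HF side and pairs with more on the HG side occurred at both times, and 8 of the 9 arrays fell outside the narrow self-self range, with the third pair at 4 h inside it. That range comes from 3 arrays of the same RNA in both channels, which hold technical noise and no variation between samples. The mean was 0.05 ± 0.49 (SD, n = 5) at 4 h and -0.14 ± 0.74 (SD, n = 4) at 20 min, against 0.04 ± 0.10 (SD, n = 3) on the self-self arrays. The differences from the self-self arrays were 0.02 ± 0.35 at 4 h (SE; adjusted p = 0.987; interval from -0.75 to 0.79) and -0.17 ± 0.37 at 20 min (adjusted p = 0.983; interval from -0.97 to 0.63). Between the times the difference was 0.19 ± 0.32 (adjusted p = 0.873). The direction at 4 h rested on single arrays: the difference was -0.08 without pair 1, -0.12 without pair 2 and -0.04 without the self-self array 3HG. Without the third pair at 20 min it was 0.09 at 20 min and -0.07 between the times.

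The spread of Slc5a2 within the 4 h and 20 min groups, 0.61 when pooled, was higher than that of 98.8% of features, and that of Slc5a1, 0.41, was higher than that of 95.4%. The median of all features was 0.20. On the self-self arrays the SD of Slc5a2 was 0.10, below the median of 0.15 over all features. Signal intensities are not analysed here, so how far the Slc5a2 probe was above background was not tested.

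**Figure D2:**
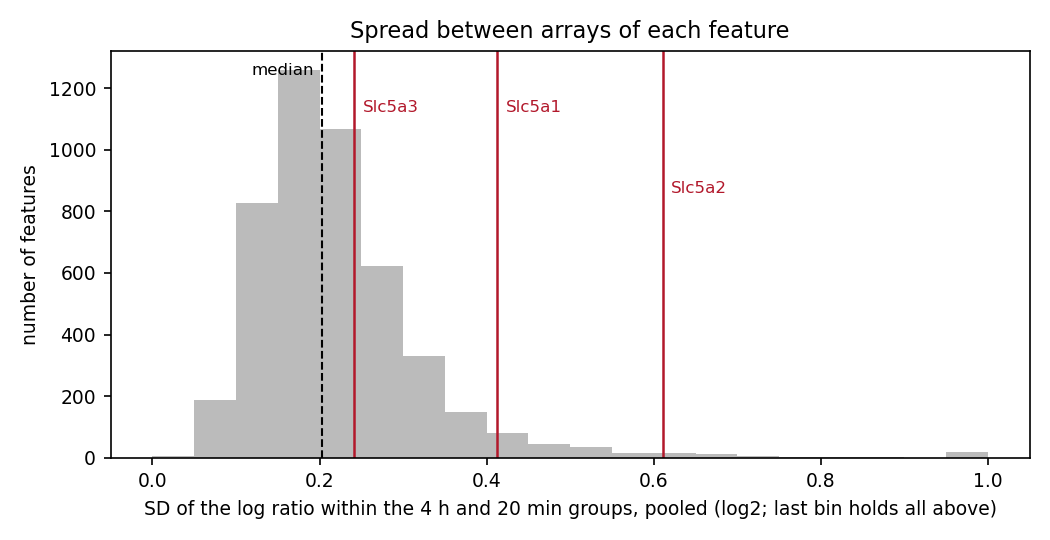
The histogram counts the 4682 features by the SD of their log2 ratio within the 4 h and 20 min groups, pooled, and the last bin also holds all larger values. Slc5a3 (0.24) lies near the median of all features (0.20, dashed line), and Slc5a1 (0.41) and Slc5a2 (0.61) lie in the upper tail.

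Slc5a3, the gene of the myo-inositol carrier SMIT1, had log ratios of -0.82, -0.53, -0.65, -0.86 and -0.29 at 4 h. At 20 min they were -0.53, -0.29, -0.47 and 0.03, against -0.23, -0.18 and -0.25 on the self-self arrays 1HG, 3HG and 3HF. The arrays at 4 h did not overlap the self-self arrays, although pair 5 lay just below the lowest of them. The arrays at 20 min overlapped both other groups. The self-self arrays were themselves below 0 and close together, with an SD of 0.03 that was higher than that of only 3.08% of features. The mean was -0.63 ± 0.23 at 4 h (SD, n = 5), against -0.22 ± 0.03 on the self-self arrays (SD, n = 3).

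The difference of Slc5a3 at 4 h, -0.41 ± 0.15 (SE), corresponds to 0.753-fold on the HF side, with a 95% interval from -0.74 to -0.07 on the log2 scale. Its unadjusted limma p of 0.0207 stood at rank 234 of 4682 features, and the adjusted p was 0.413. An unadjusted p below 0.05 was found for 9.97% of features and non-overlapping arrays for 6.71%, against 1 of the 3 members each. At 20 min the mean was -0.31 ± 0.25 (SD, n = 4), and the difference from the self-self arrays was -0.09 ± 0.16 (SE; adjusted p = 0.972; interval from -0.44 to 0.26), where 0 of the 3 members had an unadjusted p below 0.05 or non-overlapping arrays, against 5.21% and 7.01% of features.

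The ratio of Slc5a3 was lower at 4 h than at 20 min by -0.32 ± 0.14 (SE; unadjusted p = 0.045, adjusted p = 0.353; interval from -0.62 to -0.01), a comparison in which a dye effect common to all arrays cancels. Here 13.5% of features had an unadjusted p below 0.05, against 1 of the 3 members, and the arrays of both times did not overlap in 6.54% of features, against 0 of the 3. Set against 0 rather than against the self-self arrays, Slc5a3 passed at 4 h with -0.63 ± 0.09 (SE; adjusted p = 0.000768). That test leaves the dye effect in, and it called 16.3% of all features at 4 h and 8.2% at 20 min, where no member passed.

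Pair 2 was measured on both array 2 and array 6, which allows each gene to be read again in the same RNAs. Slc5a2 had 0.63 on array 2 and -0.66 on array 6, with opposite signs and nearly equal size around a self-self mean of 0.04. Slc2a5 turned its sign too, with 1.62 on array 2 and -1.66 on array 6. Slc5a1 had -0.51 on array 2 and -0.01 on array 6, which lie below and above its self-self mean of -0.29. Slc5a3 had -0.53 on array 2, but on array 6 its value of -0.22 equalled its self-self mean of -0.22, so the lower ratio of pair 2 was not seen again there. Over all features arrays 2 and 6 correlated positively, as given above, also with the self-self mean subtracted (Spearman's rho 0.22). The turned signs of Slc5a2 and Slc2a5 were thus not the general pattern. The orientation of the dyes on array 6 was inferred and not tested, and array 6 entered no mean or test above.

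How the 3 genes varied together was described without a test. Across the 9 arrays of HF and HG samples Pearson's r was -0.01 between Slc5a1 and Slc5a2 (Spearman's rho -0.08) and -0.04 between Slc5a2 and Slc5a3 (rho -0.18). Between Slc5a1 and Slc5a3 it was 0.38 (rho 0.25). Without the 2 arrays farthest from the median of the first gene of each pair, r was 0.24, 0.14 and -0.19 in the same order. These arrays share pairs, times and dyes, and the correlations are given as a description. Each gene has a single probe, so disagreement between probes could not be examined.

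The fructose carrier gene Slc2a5 was set beside the 3 genes on the same arrays. Its ratio differed from the self-self arrays at 4 h by 1.69 ± 0.16 (SE; limma adjusted p = 0.000397), and the arrays at 20 min lay between -0.44 and -0.01. The self-self arrays carry RNA of pairs 1 and 3, and an alternative fit used the RNA number as a replicate block. There the difference was 1.78 ± 0.21 (limma unadjusted p = 0.00097, adjusted p = 0.63) and the call was lost. The difference was not smaller in that fit, which leaves few degrees of freedom for the spread. Differences between samples cancel on a self-self array, so the lost call does not show a weaker response of Slc2a5. Within each array Slc2a5 minus Slc5a1 was between 1.57 and 2.41 at 4 h, against -0.77 to 0.71 at 20 min and 0.03 to 0.41 on the self-self arrays. The gap between both genes was wider at 4 h than at 20 min by 1.91 (two-sided exact permutation test over arrays, p = 0.0159, the smallest that 5 against 4 arrays can give) and wider than on the self-self arrays by 1.73 (exact p = 0.0357, the smallest that 5 against 3 can give). For Slc2a5 minus Slc5a2 these differences were 1.78 and 1.67, and for Slc2a5 minus Slc5a3 2.28 and 2.10, with the same p-values.

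With Benjamini-Hochberg adjustment over all 12 gaps tested, these became 0.0635 against 20 min and 0.0714 against the self-self arrays, and none passed. Their exact p were already the smallest possible, so they could have passed only if gaps among the members had small p too. The adjusted values therefore cannot decide whether the gaps with Slc2a5 differ. The gaps were chosen with the response of Slc2a5 known. Among the 3 members no gap passed, with exact permutation p from 0.19 to 0.964. For Slc5a3 minus Slc5a1 it was smaller at 4 h by -0.38 than at 20 min (exact permutation p = 0.19) and by -0.37 than on the self-self arrays (exact permutation p = 0.214). GLUT2, the exit carrier for both sugars, is encoded by Slc2a2, whose differences from the self-self arrays were -0.12 ± 0.17 at 4 h (SE; limma adjusted p = 0.836) and -0.06 ± 0.18 at 20 min (adjusted p = 0.992). Between the times Slc2a2 differed by -0.06.

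**Figure D3:**
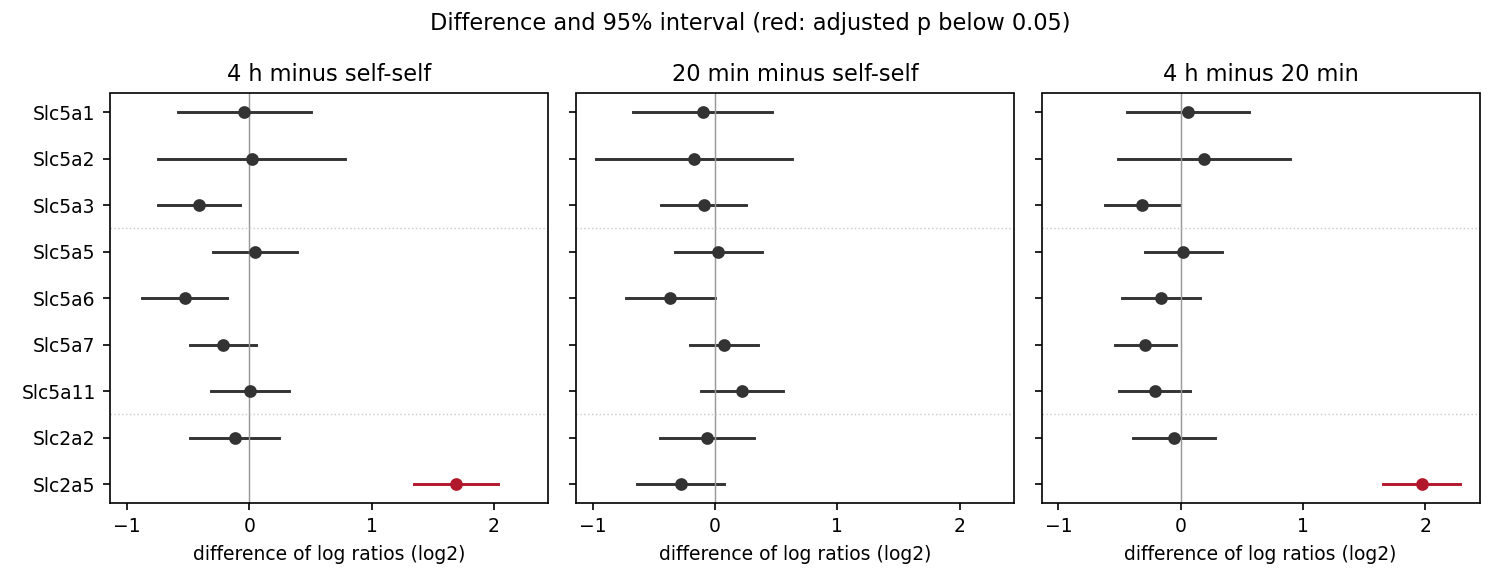
Points are differences of the log2 ratio in limma's fit, named above each panel, and lines are 95% intervals; red marks an adjusted p below 0.05, and dotted lines set apart the 3 members, the other Slc5 genes and 2 facilitative carriers. The intervals of Slc5a1 and Slc5a2 include 0 in every panel, that of Slc5a3 lies below 0 at 4 h in both comparisons without passing adjustment, and of the 9 genes drawn only Slc2a5 passes, in the same 2 panels.

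The other 4 measured genes of the Slc5 family gave 0 calls in each comparison, and their median difference was -0.10 at 4 h and 0.05 at 20 min against the self-self arrays, beside -0.01 and 0.00 for all features. Slc5a6, the carrier of biotin and pantothenate, had 4 h ratios between -0.55 and 0.11, against 0.20 to 0.47 on the self-self arrays, with no overlap. Its difference was -0.53 ± 0.16 at 4 h (SE; unadjusted p = 0.00624, adjusted p = 0.312) and -0.37 ± 0.17 at 20 min (adjusted p = 0.801). This was a larger difference than that of Slc5a3 and it did not pass either. Slc5a11, which encodes SMIT2, the other inositol carrier of the family, differed by 0.01 ± 0.15 at 4 h (adjusted p = 0.988) and 0.22 ± 0.15 at 20 min (adjusted p = 0.861). Slc5a7, the choline carrier, had the smallest p of these 4 between the times (-0.29 ± 0.11; adjusted p = 0.285), followed by Slc5a11 (-0.21 ± 0.13; adjusted p = 0.542). Slc5a5, the iodide carrier, differed by 0.05 ± 0.16 at 4 h.

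For the sodium pump, 9 of its subunit and FXYD regulator genes were measured, with 0 called in each comparison and median differences of 0.03 at 4 h, -0.02 at 20 min and 0.06 between the times. The pump subunit Atp1b1 had the largest value, -2.17 ± 1.17 at 4 h (SE; adjusted p = 0.496), which came from a log ratio of 6.44 on the self-self array 1HG and was 0.06 without that array. Atp1a4, another pump subunit, had -1.27 at 4 h and 0.03 without 1HG, and at 20 min -1.55 ± 0.72 (SE; adjusted p = 0.801) and -0.25 without 1HG. Atp1b1 had -2.34 at 20 min, and -0.11 without 1HG. For Fxyd2 the difference of -0.80 at 4 h (adjusted p = 0.492) rested on the self-self array 3HG, and it was -0.20 without it. Atp1b3 had the smallest p between the times (0.32 ± 0.11; adjusted p = 0.221), followed by Fxyd6 (0.23 ± 0.16; adjusted p = 0.585).

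Of the genes known to regulate or partner these carriers 15 were measured and 0 called. At 4 h against the self-self arrays 12 of the 15 lay below 0, beside 51.5% of all features, with a median of -0.15, and without the self-self array 1HG 10 lay below 0, with a median of -0.12. At 20 min 9 lay below 0, beside 49.4% of all features, and 6 without 1HG, with medians of -0.02 and 0.06. Cdx2, a transcription factor of the intestinal epithelium, differed by -0.33 ± 0.12 at 4 h (SE; adjusted p = 0.409) and by -0.36 ± 0.11 between the times (adjusted p = 0.195). Prkaca, a catalytic subunit of protein kinase A, differed by -0.67 ± 0.28 at 4 h (adjusted p = 0.466), and by -0.16 without the self-self array 1HG. Sgk1, a kinase that raises the activity of many sodium-coupled carriers, differed by -0.33 ± 0.14 between the times (adjusted p = 0.334). Pdzk1, a scaffold protein of the brush border, had the smallest p at 20 min (-0.52 ± 0.38; adjusted p = 0.878; 0.10 without 1HG), followed by the kinase subunit Prkaa2 (0.14; adjusted p = 0.899).

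Of the genes of inositol and osmolyte handling 8 were measured, 0 were called, and the median difference was 0.02 at 4 h, 0.06 at 20 min and 0.02 between the times. Akr1b1, the aldose reductase that makes sorbitol and responds to hypertonic medium as Slc5a3 does, differed by 0.27 ± 0.20 at 4 h (SE, adjusted p = 0.616) and by 0.18 between the times. Slc6a6 is the taurine carrier and another gene of the same osmotic response. It differed by 0.14 at 4 h, by 0.34 ± 0.16 at 20 min (adjusted p = 0.801) and by -0.19 ± 0.14 between the times (adjusted p = 0.603). An osmotic response was not tested. Kcne2, a potassium channel subunit, differed by -0.25 ± 0.13 at 4 h (adjusted p = 0.492) and -0.26 ± 0.14 at 20 min (adjusted p = 0.801). Cdipt, which makes phosphatidylinositol from inositol, differed by 0.15 ± 0.14 between the times (adjusted p = 0.728).

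Of the facilitative sugar transporters 6 were measured, and Slc2a5 was the 1 called, higher at 4 h than at 20 min (1.97 ± 0.14, SE; adjusted p = 2.89e-05) and than on the self-self arrays, where the call was lost with the replicate block. Slc2a4, the insulin-responsive carrier, had the next smallest p, with 0.52 ± 0.19 at 4 h (SE; adjusted p = 0.397) and 0.65 ± 0.17 between the times (adjusted p = 0.13). At 20 min Slc2a5 had the smallest p (-0.28; limma adjusted p = 0.801), followed by Slc2a3, with 0.10 ± 0.11 (adjusted p = 0.952). The median of the 6 was 0.11 at 4 h and -0.04 at 20 min. Among 12 other carriers driven by sodium, the phosphate carrier gene Slc34a2 was called between the times (-1.75 ± 0.31; adjusted p = 0.0312), though in only 2 of 9 fits with 1 array left out. Slc34a1, also a phosphate carrier, had -0.72 ± 0.25 there (adjusted p = 0.222). At 4 h against the self-self arrays 0 of the 12 passed: Slc34a2 had -1.71 ± 0.34 (adjusted p = 0.131) and the nucleoside carrier Slc28a1 0.56 ± 0.15 (adjusted p = 0.256; 0.34 without 1HG). At 20 min the phosphate carriers Slc20a2 (-0.34 ± 0.14) and Slc20a1 (-0.20 ± 0.14) had the smallest p (adjusted p = 0.801 and 0.871).

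**Figure D4:**
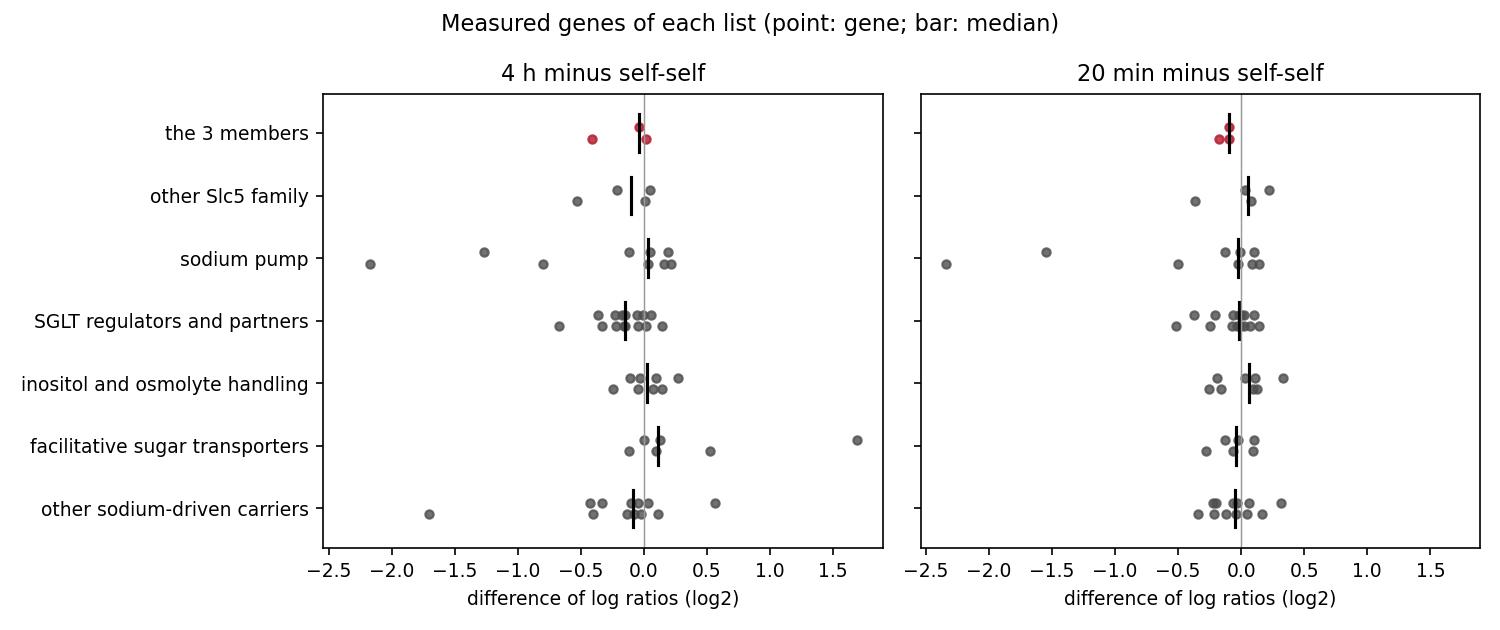
Each point is a measured gene, placed by its difference of log2 ratios in the comparison named above the panel, and bars are medians, for the 3 members (red) and 6 lists of related genes. The medians lie between -0.15 and 0.11 in both panels, Slc2a5 is the point at 1.69 at 4 h (not called with the replicate block), and the points of the sodium pump below -1 are Atp1b1 and Atp1a4, whose differences rest on the self-self array 1HG.

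None of 42 measured marker genes of intestinal and neighbouring cell types was called in any comparison in limma's fit, and 6, 2 and 4 of them had an unadjusted p below 0.05 at 4 h, at 20 min and between the times, beside 9.97%, 5.21% and 13.5% of all features. At 4 h against the self-self arrays the 10 enterocyte markers had 6 above 0 and a median of 0.02, and without the self-self array 1HG 5 above 0 and a median of -0.06. The smallest p among them were those of Apoa1, an apolipoprotein (-0.59 ± 0.12, SE; adjusted p = 0.155), and Fabp2, the intestinal fatty acid binding protein (-0.56 ± 0.20; adjusted p = 0.394). Between the times, where the ratio of Slc5a3 was also lower at 4 h, the enterocyte markers had 6 of 10 below 0, 3 with an unadjusted p below 0.05 and a median of -0.17, beside -0.01 for all features. There Apoa1 (-0.44 ± 0.11; adjusted p = 0.126) and Apoa4 (-0.39 ± 0.13; adjusted p = 0.217) had the smallest p. The other 4 markers lay above 0, among them Treh (0.39) and Si (0.34), so the list did not move in 1 direction. At 4 h against the self-self arrays the 8 pancreas markers had 7 below 0 and a median of -0.35, and the 6 smooth muscle markers had 4 below 0 and a median of -0.10, beside 51.5% of all features below 0. Without 1HG 6 pancreas and 4 smooth muscle markers lay below 0, with medians of -0.30 and -0.07. The part of cell composition in the ratio of Slc5a3 was not tested. Ratios give no level, so whether the tissue held its defining markers could not be checked.

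The genes whose ratios followed a member most closely across the 9 arrays were listed among 4155 other genes. For Slc5a3 these were Cnksr2 (Pearson's r 0.93, Spearman's rho 0.93), Rbp4 (0.89 and 0.85), a carrier of retinol, and Dusp6 (0.86 and 0.88), a phosphatase of MAP kinases. Dusp6 averaged -0.58 at 4 h, against 0.27 at 20 min and 0.33 on the self-self arrays, and Rbp4 -0.41 at 4 h, against 0.00 and 0.03. For Slc5a1 they were Acvr1c (0.89 and 0.97), Ppp3cb (0.87 and 0.82) and Mas1 (0.86 and 0.82), and for Slc5a2 Snap29 (0.89 and 0.83), Il18 (0.88 and 0.77) and Rab14 (0.85 and 0.83). They are the highest of many correlations over few arrays and are given as a description.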

How the data were processed

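The deposited table held a log ratio, taken as log2, for each of 4952 probes on 14 arrays, with 0 values missing. How the authors scanned, corrected and normalized the arrays, the logarithm's base and the ratio's direction are not given in the labels used here. Column medians lay between -0.07 and 0.02, so the deposited values look centred already. Another base would change all differences by 1 factor, but no sign or p-value.

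Each array was centred on its median, and probes of 1 gene symbol in the platform annotation were averaged, which left 4682 features. Base R 4.3.3 and limma 3.58.1 (lmFit and eBayes) fitted 12 arrays in 3 groups (4 h, 20 min, self-self), with 9 residual degrees of freedom, and p-values were adjusted over all features. Array 6 was left out because its dye orientation is not stated, and the primer array because it holds no tissue RNA. Of the arrays 0 pairs held identical values. The fit was tested on simulated data. Gaps between genes were compared with exact permutation tests, a test added after the values had been seen.

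The self-self arrays carry RNA of pairs 1 and 3 at 4 h, per the labels. Their deviations correlated with those of the same-numbered arrays at 4 h by -0.02 to 0.01. This cannot show whether samples are shared, because both channels of a self-self array hold the same RNA and differences between samples cancel. Deviations of same-numbered arrays at 4 h and 20 min correlated by -0.07 to 0.16. The numbers in brackets at 20 min do not mark shared samples in the labels, so no block was used.

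The members, lists and tests were chosen with earlier results of these data known. Named were the 3 members, in each of 6 lists the 2 genes with the smallest p per comparison, Slc2a5 and Slc2a2 throughout, and for each member the 3 genes with the highest Pearson's r. Slc5a5 was added to complete the family, and the markers Apoa1, Fabp2, Apoa4, Treh and Si were named after their values were seen. Another 6 lists held cell type markers. Alternatives covered array 6, centring, scaling, array weights, the arrays in the fit, the control, probes, the block and leaving out each array. The values of list genes with an array left out or with the block were added after seeing the data.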

Additional observations from a re-analysis of the deposited data

Results flagged for a closer look

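Slc5a1 and Slc5a2 had values outside the range of the self-self arrays on arrays that no comparison used. On array 6, the second array of pair 2, Slc5a1 had -0.014, above the self-self range from -0.50 to -0.16, and Slc5a2 had -0.66, below the range from -0.08 to 0.10. On the primer array, which held no tissue RNA, Slc5a1 had 0.11, and Slc5a3 had -0.16, just above its self-self range from -0.25 to -0.18. Of 29 named genes tested at both times, 2 groups of 58 held an array far from the rest, and chance flags about 1 group in 20: Slc2a5 had -0.015 on array 2 at 20 min, where the nearest array had -0.38, and Sgk1 had 0.22 on array 3 at 4 h, where the nearest had -0.15. The ratio differed between 4 h and 20 min in limma's test for the named genes Slc2a5 (1.97; adjusted p = 2.89e-05) and Slc34a2 (-1.75; adjusted p = 0.0312).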

How the results depend on the processing

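Over 156 values of the 3 genes under the alternatives, 1 passed: Slc5a3 at 4 h set against 0 (-0.63), where 763 features passed at 4 h and 384 at 20 min. The other 17 alternatives for Slc5a3 at 4 h gave -0.50 to -0.29 and adjusted p from 0.255 to 0.674. At 20 min Slc5a3 ran from -0.31 to -0.02 over 16 alternatives, and between the times from -0.40 to -0.20 over 18, of which 8 had an unadjusted limma p below 0.05.

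For Slc5a1 and Slc5a2 16 values changed sign; the cause was not tested. With array 6 averaged in as deposited, the 4 h differences were 0.0096 (Slc5a1) and -0.11 (Slc5a2), and 0 features passed in each comparison. Slc5a1 at 4 h was 0.065 with arrays scaled to 1 spread and 0.077 after quantile normalization. With 1 array left out, Slc5a1 ran from -0.15 to 0.026 at 4 h, -0.34 to 0.13 at 20 min and -0.17 to 0.30 between the times, and Slc5a2 from -0.12 to 0.15, -0.41 to 0.088 and -0.069 to 0.43. The calls ran from 2 to 5, 0 to 4 and 4 to 29 of all features. At 20 min 0 features passed with array 6 turned, with scaling, or with only the groups compared. Scaling left 16 between the times.

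With the replicate block 0 features passed at 4 h against the self-self arrays and 22 between the times, and Slc5a3 differed by -0.50 and -0.40; it changed no call of a member, but Slc2a5 lost its call at 4 h against the self-self arrays (1.78; adjusted p = 0.63) and kept it between the times (2.05; adjusted p = 0.000619), as did Slc34a2 (-1.80; adjusted p = 0.0244). Of the 4 numbers shared by both times, number 2 was the 1 whose arrays correlated best with each other, and the numbers are not taken to pair the samples. Dim probes could not be set apart, since signal over background is not analysed here.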
